A study of Mus musculus with 6 samples.

Results

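The interferon-induced effectors Isg15, Usp18, Ifit1, Ifit2, Ifit3, Ifitm1, Ifitm2, Ifitm3, Bst2 and Rsad2 were examined in mouse embryonic stem cells. These 10 genes were taken by name, and 6 of them (Isg15, Ifit2, Ifitm1, Ifitm2, Ifitm3 and Bst2) had a row among the 17110 genes of the authors' deposited table of fold changes. The same 6 genes had a row, by gene identifier, among the 17231 genes of the raw count table. Usp18, Ifit1, Ifit3 and Rsad2 had no row among those used and were not analysed here for expression. The 10 genes were chosen by role with the fold changes and p-values of this comparison already known, so these values are given as a description.

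The cells were of the line TG2A and carried a fluorescent protein under MERVL, the endogenous retrovirus which is transcribed in two-cell mouse embryos and in a few cells of a stem cell culture. Cells with reporter signal (DsRed2+, 3 samples) and without it (DsRed2-, 3 samples) were separated by fluorescence-activated sorting from cultures in serum with leukemia inhibitory factor, and the replicates of a group were collected on different dates. Both groups share the line, the reporter and the medium, and the labels name 1 line only, with no statement of clones. Polyadenylated RNA was sequenced in bulk. In such samples, fewer cells of a type and less RNA per cell cannot be told apart.

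Interferon effectors are the genes through which a cell resists viruses after interferon has been sensed. Interferon bound to its receptor activates the kinases Jak1 and Tyk2, and transcription factors such as Stat2 and Irf9 then act on the interferon-stimulated response element (ISRE) of target promoters. Embryonic stem cells are known for a weak response to interferon and for expressing part of these effectors, the Ifitm genes among them, without it.

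The promoter sequences are shown because the ISRE is the element through which interferon reaches these genes, and they were read without use of the measured values. RefSeq windows on GRCm38.p6, from 250 bases before to 50 bases after the transcript start, matched 9 of the 10 genes by symbol, with 2 windows for Ifit2. The entry not matched was Usp18. The ISRE core was searched as GAAA, 2 bases of any kind and GAAA, on both strands, and 7 of the 9 genes held it (Isg15, Bst2, Ifitm2, Ifitm3, Ifit1, Ifit3 and Rsad2). Among all 32841 windows of the same length, 3.44% held the core, and by gene 3.99% of 27018 did. Of the 6 effector genes with a row, 4 held it. Among the other interferon pathway genes with a row, 15 of 60 matched genes (25%) held it. Ifitm1 and both windows of Ifit2 did not hold these letters. The 160 bases before the start are shown for 4 genes with a row, 3 with the core and Ifitm1 without it, 5′ to 3′ on the gene's strand, with the ISRE cores in capitals. They lie at chr4:156200819-156200978 (minus strand) for Isg15, chr8:71537473-71537632 (minus strand) for Bst2, chr7:140955962-140956121 (minus strand) for Ifitm2 and chr7:140967916-140968075 (plus strand) for Ifitm1.
Isg15: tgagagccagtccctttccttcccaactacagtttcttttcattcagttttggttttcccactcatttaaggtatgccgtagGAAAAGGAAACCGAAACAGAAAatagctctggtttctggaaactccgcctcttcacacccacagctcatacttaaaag
Bst2: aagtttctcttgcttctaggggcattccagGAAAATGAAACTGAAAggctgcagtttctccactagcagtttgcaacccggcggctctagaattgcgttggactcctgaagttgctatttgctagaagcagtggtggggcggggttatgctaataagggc
Ifitm2: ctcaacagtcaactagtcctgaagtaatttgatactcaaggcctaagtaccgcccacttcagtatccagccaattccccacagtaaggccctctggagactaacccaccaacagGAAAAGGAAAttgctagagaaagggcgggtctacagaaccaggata
Ifitm1: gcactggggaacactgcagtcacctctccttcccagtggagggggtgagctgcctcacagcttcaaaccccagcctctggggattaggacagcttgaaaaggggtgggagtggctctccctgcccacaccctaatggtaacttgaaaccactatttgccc

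The Isg15 promoter held 3 overlapping cores, from base -78 to base -57 before the start. The Bst2 promoter held 2 overlapping cores from -130 to -115, and that of Ifitm2 held 1 core from -46 to -37. In the Ifitm3 window both cores lay after the start, from 3 to 12 and from 20 to 29. Ifit1 and Ifit3 each held 2 separate cores on the opposite strand, from -104 to -95 and -85 to -76 in Ifit1 and from -156 to -147 and -122 to -113 in Ifit3. Rsad2 held 1, from -120 to -111.

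The GAS core, a second element of interferon-induced promoters, was searched as TTC, 3 bases of any kind and GAA, which reads alike on both strands. It was found in Bst2, Ifitm3 and the first window of Ifit2, against 8.3% of all windows. In Bst2 it spanned -136 to -128 and overlapped the first ISRE core, and in Ifitm3 it spanned 14 to 22 and overlapped the second. A match to GGGA, 3 bases of any kind and TCC, an NF-kB site, was found in Ifitm3 and Ifit2 (4.59% of all windows), and a match to GGGG, 2 bases of any kind and TTCC, another form of that site, in Bst2 (1.47% of all windows). Both kinds were searched on both strands, and those of Bst2 and Ifit2 overlapped the GAS core. The letters TATAAA of the TATA box, searched on both strands, were found in Ifitm2 and Rsad2, against 13.6% of all windows. Both matches were on the opposite strand, from -175 to -170 in Ifitm2 and from -10 to -5 in Rsad2. A match is a description of the letters and says nothing of binding, and the windows carry no expression value.

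**Figure D1:**
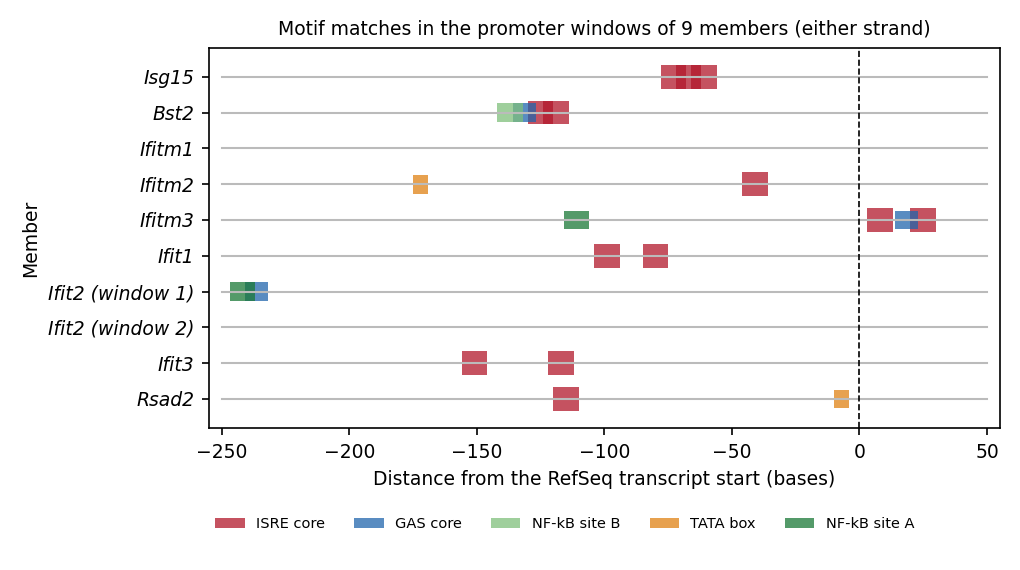
Motif matches in the RefSeq promoter windows of 9 effector genes, with the distance from the transcript start in bases on the horizontal axis and 1 line per window. Red boxes are ISRE cores, present in 7 genes and absent from the windows of Ifitm1 and Ifit2, and the other colours are GAS, NF-kB and TATA matches.

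Expression was taken from the authors' deposited table, which gives each gene 1 mean normalized count over the libraries, 1 log2 fold change with its standard error and a DESeq2 p-value. Values per sample are not shown, because the 6 columns of the count table are named by run and barcode numbers that match no sample label. The table names neither the groups it compares nor the numerator, so it was taken as the comparison of the sorted groups, and "positive" and "negative" below are its own signs, with no sorted group attached. The precision of each value is that of the authors' standard error, and each 95% interval is the normal one from that error. The labels' cell type was checked on 20 pluripotency markers. Of the 19 with a row in the authors' deposited table, Dppa5a and Zfp42 had mean normalized counts of 38163 and 16185. The list's summed mean normalized count was 175297.

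At an adjusted p-value under 0.05, 3 of the 6 genes passed in the authors' deposited table, 1 negative (Isg15) and 2 positive (Ifitm1 and Ifitm2), against a background of 30.5% of all genes (15.9% negative and 14.6% positive). Under the authors' own call, which adds a limit of 0.5 on the absolute log2 fold change, Isg15 was down (12.1% of all genes) and Ifitm1 and Ifitm2 were up (9.4% of all genes). Centring on 79 ribosomal protein genes moved the calls over all genes from 2492 positive and 2719 negative to 1864 and 3508. The 6 genes had a median of -0.011 (log2) in the authors' deposited table, against 0.0097 over all genes. These effectors spread to both sides of 0 rather than sharing a direction, and nothing is read from the count, since the genes were proposed with this contrast in view.

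**Figure D2:**
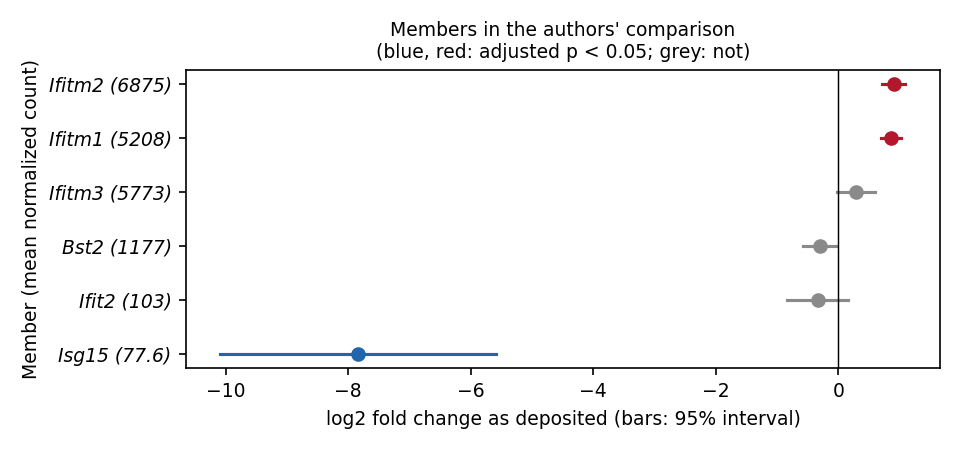
Log2 fold change as deposited for the 6 effector genes with a row, with points for the estimate and bars for the 95% interval, and the mean normalized count in brackets. Isg15 stands at -7.83 with a wide bar, Ifitm1 and Ifitm2 stand at 0.86 and 0.91 with narrow ones, and the other 3 genes lie within 0.34 of 0.

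Isg15 (ENSMUSG00000035692) encodes a small ubiquitin-like protein that is attached to other proteins after interferon. In the authors' deposited table its log2 fold change was -7.83 ± 1.15 (SE; 95% interval -10.08 to -5.58, DESeq2 adjusted p-value 1.91e-10). This was the most negative fold change of all 17110 genes in the authors' deposited table, by a margin far within its error. Ifih1, a sensor of viral RNA, had rank 3 at -7.78 ± 1.35 (SE) in the authors' deposited table, at a mean normalized count of 40.5. For Ifih1 about 1.10 counts are implied over the 3 libraries of the lower group. The mean normalized count of Isg15, 77.6, was low beside the table's median of 394.2. With 3 libraries on each side and the fold change read as the ratio of the group means, that mean implies about 154.6 normalized counts per library in the higher group and 0.68 in the lower, so about 2.03 counts over the 3 libraries of the lower group. The direction is as deposited, and the size of the fold rests on those few counts. Its error in the authors' deposited table was 1.15, against a median of 0.32 over the 2559 genes with a mean count within 2-fold of its own. Whether 1 library of the higher group carries the gene was not tested. By 31-base words, 13.1% of the longest Isg15 transcript (756 bases, GENCODE M21) also occurs in other genes, most of it in AC151275.1.

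The genes that neighbour Isg15 on chromosome 4, with a row in the authors' deposited table, did not share its size of change. Agrn, on one side, encodes a basement membrane proteoglycan and had a log2 fold change of -0.21 ± 0.11 (SE) in the authors' deposited table (DESeq2 adjusted p-value 0.129). Perm1, on the other side, stood at -1.30 ± 0.67 (SE) in the authors' deposited table (DESeq2 adjusted p-value 0.138) at a mean normalized count of 15.0. Among the 8 nearest genes with a row, 0 passed the threshold of 0.05 on the DESeq2 adjusted p-value, while 30.5% of the whole table did. Of the 8, 1, Agrn, had an unadjusted DESeq2 p-value under 0.05 (0.0493). Perm1, Samd11 and Gm13648 were scarce, at mean normalized counts of 15.0, 9.16 and 8.61. Their standard errors were 0.67, 0.73 and 0.73, so only a large change could have passed in them. Whether Isg15 changes alone in this stretch was not tested. The order of genes was taken from GENCODE M21.

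The enzymes that attach ISG15 to its targets were given as a list of 6 genes, of which 5 had a row. Past the threshold, 3 of the 5 were negative and 1 was positive in the authors' deposited table, against 15.9% and 14.6% of all genes. Their median log2 value was -1.54. Uba7, the activating enzyme, stood at -5.92 ± 1.43 (SE) in the authors' deposited table (DESeq2 adjusted p-value 0.000254), at a mean normalized count of 11.3. Herc6, the mouse ligase for ISG15, stood at -1.91 ± 0.46 (SE) in the authors' deposited table (DESeq2 adjusted p-value 0.00024). Ube2l6, the conjugating enzyme, stood at -1.54 ± 0.43 (SE) in the authors' deposited table (DESeq2 adjusted p-value 0.00174). These 3 dedicated enzymes thus had the sign of Isg15. Their mean normalized counts of 11.3, 26.7 and 53.3 in the authors' deposited table were low, and at a minimum mean count of 50 the negative genes of this list went from 3 to 1, since Uba7 and Herc6 fall under that minimum.

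The ligases with wider roles were not negative past the threshold. Trim25, which also takes part in RNA sensing, was positive at 0.51 ± 0.11 (SE) in the authors' deposited table (DESeq2 adjusted p-value 1.11e-05). Arih1, a ubiquitin ligase, stood at -0.018 ± 0.071 (SE) in the authors' deposited table (DESeq2 adjusted p-value 0.887). Their mean normalized counts were 4616 and 5493 in the authors' deposited table. Usp18, which removes ISG15 from proteins and restrains the interferon receptor, has no value here.

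The Ifitm genes encode small membrane proteins that hinder the fusion of viruses with the cell, and Ifitm3 is also known as a marker of early germ cells. They lie side by side on chromosome 7 and were the most abundant of the effectors. Per kilobase of the longest transcript, the mean normalized count in the authors' deposited table was 10496 for Ifitm2, 8514 for Ifitm3 and 5905 for Ifitm1. Bst2 followed at 1486, Isg15 at 103 and Ifit2 at 27.1 per kilobase in the authors' deposited table. Among the 16795 genes of the table with a GENCODE M21 length, Ifitm2, Ifitm3 and Ifitm1 stood at percentiles 98.8, 98.5 and 97.8 of this level, Bst2 at 90.1, Isg15 at 46.0 and Ifit2 at 27.9. These levels are means over libraries with no spread, so whether neighbours in this order differ was not tested.

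Ifitm1 (ENSMUSG00000025491) stood at a log2 fold change of 0.86 ± 0.085 (SE) in the authors' deposited table (95% interval 0.70 to 1.03, DESeq2 adjusted p-value 2.94e-22). Ifitm2 (ENSMUSG00000060591) had 0.91 ± 0.097 (SE) in the authors' deposited table (95% interval 0.72 to 1.10, DESeq2 adjusted p-value 5.27e-19). On the linear scale these are 1.82-fold and 1.87-fold. With 3 libraries on each side, they imply about 6720 against 3697 normalized counts for Ifitm1 and 8964 against 4786 for Ifitm2, so both genes were abundant in both groups.

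Ifitm3 (ENSMUSG00000025492) stood at a log2 fold change of 0.28 ± 0.16 (SE) in the authors' deposited table (95% interval -0.029 to 0.60, DESeq2 adjusted p-value 0.179). Its interval ended below those of Ifitm1 and Ifitm2. Its mean normalized count was 5773. Its error of 0.16 in the authors' deposited table was above the median of 0.10 of the 2090 genes with a mean count within 2-fold. The difference between the Ifitm genes was not tested, since the table holds no values per library.

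The Ifitm transcripts share sequence, which bears on how reads were divided among them. By 31-base words, 55.5% of the longest Ifitm2 transcript (655 bases) also occurs in transcripts of other genes, 38.1% in the overlapping gene model Gm45717 on the same strand. The shares were 20.5% for Ifitm3, of which the part with Gm7676 was the largest, and 14.7% for Ifitm1. Bst2 and Ifit2 shared 0 such words with any other gene. By this measure Ifitm2 shares the most sequence of the 6 genes, and RSEM, which the submitters' processing notes name, is a program that divides reads matching several genes by estimate. Its settings are not given in the sources used here.

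**Figure D3:**
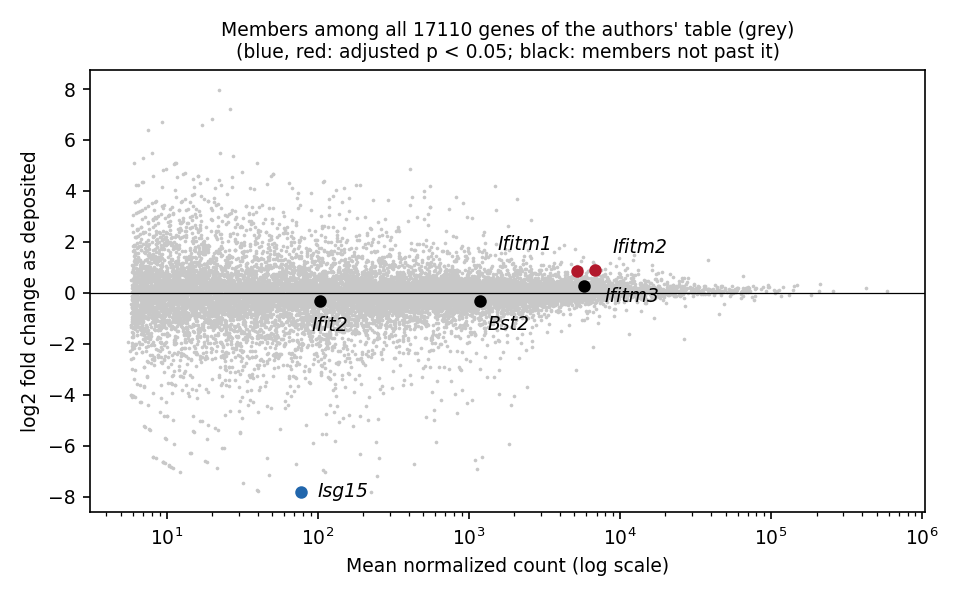
Log2 fold change as deposited against mean normalized count (log scale) for the 17110 genes of the authors' table in grey, with the 6 effector genes marked. Isg15 is the lowest point of the whole plot at -7.83, and Ifitm1 and Ifitm2 sit above 0 among the abundant genes, at 0.86 and 0.91.

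The other Ifitm paralogs with a row were scarce. Ifitm5, expressed in bone, had a mean normalized count of 20.4 and a log2 fold change of 1.02 ± 0.56 (SE) in the authors' deposited table (DESeq2 adjusted p-value 0.167). Ifitm7 had 38.6 counts and a log2 fold change of 0.13 ± 0.34 (SE) in the authors' deposited table (DESeq2 adjusted p-value 0.821). Of the 7 further paralogs listed, these 2 had a row. Past the threshold were 0 of the 2, against 30.5% of all genes, and 0 had an unadjusted DESeq2 p-value under 0.05. Nothing is read from a count over 2 scarce genes.

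Genes beside the Ifitm group were also positive in part. B4galnt4, a glycosyltransferase, stood at 1.00 ± 0.095 (SE) in the authors' deposited table (DESeq2 adjusted p-value 6.2e-24), and it is the nearest gene with a row after Ifitm3. Nlrp6, an innate immune sensor, stood at 1.39 ± 0.33 (SE), and Sigirr, a restraint on interleukin-1 receptors, at 0.63 ± 0.17 (SE) in the authors' deposited table (DESeq2 adjusted p-values 0.000185 and 0.000927). Pgghg and Pkp3 stood at 0.37 and 0.15 in the authors' deposited table (not passing, DESeq2 adjusted p-values 0.0707 and 0.556). All 9 genes of this stretch, Ifitm1 with the 4 nearest genes with a row on each side, had a positive sign, as did 8723 of all 17110 genes. Past the threshold were 5 of the 9, against 14.6% of all genes. Ifitm1 and Ifitm2 are among the 5 and were chosen with these values known, so nothing is read from the count. The rest were Nlrp6, B4galnt4 and Sigirr.

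**Figure D4:**
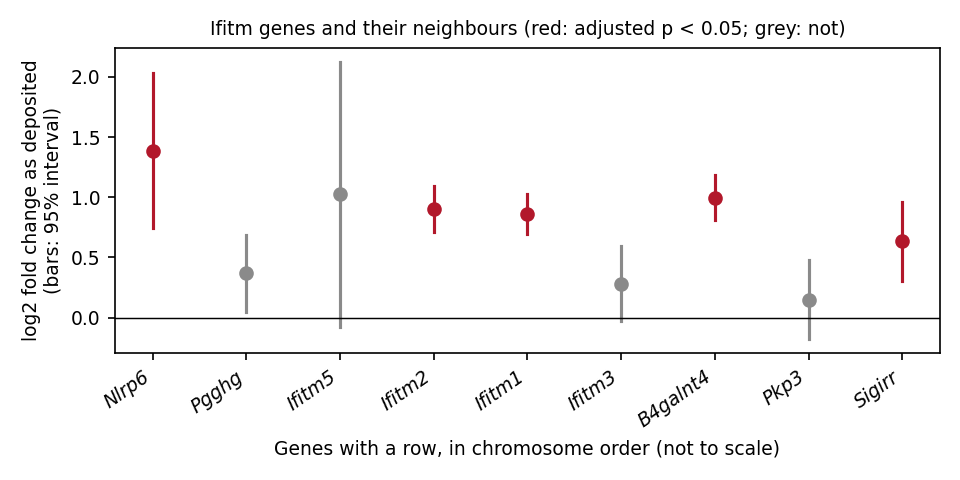
Log2 fold change as deposited, with 95% intervals, for Ifitm1, Ifitm2, Ifitm3 and the nearest genes with a row on chromosome 7, in gene order and not to scale. Ifitm1, Ifitm2 and B4galnt4 stand between 0.86 and 1.00, while Ifitm3, between them in the order, stands at 0.28.

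Bst2 (ENSMUSG00000046718) encodes tetherin, a membrane protein that holds budding virus particles on the cell surface. Its log2 fold change was -0.31 ± 0.13 (SE) in the authors' deposited table (95% interval -0.57 to -0.042, unadjusted p-value 0.0231, DESeq2 adjusted p-value 0.0706). The gene did not pass the threshold as deposited, and it did after that centring, at -0.40 with an adjusted p-value of 0.0126. Its mean normalized count of 1177 implies about 1301 against 1052 per library. Of the nearest genes with a row on chromosome 8, Gm7850, a gene model with a mean normalized count of 5.99, stood at -2.58 ± 1.05 (SE) in the authors' deposited table (DESeq2 adjusted p-value 0.047), and Mvb12a, a subunit of the endosomal sorting machinery, at 0.039 ± 0.12 (SE) (DESeq2 adjusted p-value 0.854). Of the 8 nearest, 2 passed, against 30.5% of all genes: Gm7850 and Ccdc194. Ccdc194 stood at -2.02 ± 0.31 (SE) with a mean normalized count of 79.5 (DESeq2 adjusted p-value 2.45e-09).

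Ifit2 (ENSMUSG00000045932) belongs to the Ifit family, proteins of tetratricopeptide repeats of which Ifit1 is known to bind viral RNA. Its log2 fold change was -0.34 ± 0.25 (SE) in the authors' deposited table (95% interval -0.84 to 0.16, DESeq2 adjusted p-value 0.343). With a mean normalized count of 103.4, the fold change implies about 115 against 91.4 counts per library. The interval allows a change of up to 0.84 on the log2 scale, so Ifit2 is not shown to be equal in both groups. The interval of Ifit2 does not reach that of Isg15. Lipa, a lysosomal lipase, is the nearest gene with a row on one side on chromosome 19. Lipa stood at -0.69 ± 0.17 (SE) in the authors' deposited table (DESeq2 adjusted p-value 0.000544). Pank1, on the other side, stood at 0.47 ± 0.12 (SE) (DESeq2 adjusted p-value 0.000876). Of the 8 nearest genes, 5 passed the threshold, while 30.5% of the whole table did. Besides Lipa and Pank1 these were Ankrd1, Acta2 and Kif20b. Ankrd1 stood at -6.66 ± 1.453 (SE) at a mean normalized count of 9.47 (DESeq2 adjusted p-value 3.98e-05). Acta2 and Kif20b stood at -1.95 and 0.49 with standard errors of 0.60 and 0.093 (DESeq2 adjusted p-values 0.00514 and 2.02e-06).

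The rest of the interferon pathway was read from 7 lists, of which 74 of 112 listed genes had a row. Of these 74, 30 were negative and 13 positive past an adjusted p-value of 0.05 in the authors' deposited table, and the median log2 value was -0.40, against 15.9% and 14.6% of all genes and a median of 0.0097. At a minimum mean count of 50, 17 of the 51 genes left were negative and 12 positive. Over all genes at that minimum, 2254 of 12658 were negative and 2125 positive. None of the 21 interferon ligand genes had a row among those used, and they were not analysed here.

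Receptors and kinases stand at the top of the pathway. Of 9 genes in the authors' deposited table, 4 were negative and 2 positive past the threshold, against 15.9% and 14.6% of all genes. Their median log2 fold change was -0.39. Ifnar1 and Ifnar2, the chains of the type I interferon receptor, stood at -0.11 and -0.39 with standard errors of 0.12 and 0.17 in the authors' deposited table (not passing, DESeq2 adjusted p-values 0.553 and 0.0577). Ifngr1 and Jak2, which serve interferon gamma, were negative at -1.29 and -1.64 with standard errors of 0.20 and 0.26 in the authors' deposited table (DESeq2 adjusted p-values 3.22e-09 and 6.99e-09). Jak1 was also negative, at -0.29 ± 0.097 (SE) in the authors' deposited table (DESeq2 adjusted p-value 0.0113). Il10rb, the remaining negative gene, stood at -2.54 ± 0.60 (SE) at a mean normalized count of 17.2 (DESeq2 adjusted p-value 0.000184). Tyk2 and Ifnlr1 were positive at 0.56 and 1.22 with standard errors of 0.092 and 0.33 in the authors' deposited table (DESeq2 adjusted p-values 1.83e-08 and 0.00138).

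Stat2 and Irf9, which act on the ISRE, did not pass. They stood at 0.57 and 0.30 with standard errors of 0.26 and 0.16 in the authors' deposited table (DESeq2 adjusted p-values 0.093 and 0.141). Irf1, induced mostly by interferon gamma, was negative at -1.69 ± 0.25 (SE) in the authors' deposited table (DESeq2 adjusted p-value 2.08e-10), and Irf2, its competitor, at -3.93 ± 0.91 (SE) (DESeq2 adjusted p-value 0.000124). The mean normalized count of Irf2 was 13.8, with about 5.08 implied counts over the 3 libraries of the lower group. Stat3, which carries the signal of leukemia inhibitory factor, was positive at 0.43 ± 0.095 (SE) in the authors' deposited table (DESeq2 adjusted p-value 3.79e-05). Of the 9 factors with a row, 2 were negative and 1 positive past the threshold, against 15.9% and 14.6% of all genes. Their median log2 fold change was -0.018. Among 8 negative regulators of the pathway, Socs1 alone passed, at -1.35 ± 0.42 (SE) in the authors' deposited table (DESeq2 adjusted p-value 0.00644), against 30.5% of all genes in either direction.

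Other antiviral effectors were called in both directions, more of them negative. Of the 41 with a row, 20 were negative and 9 positive past an adjusted p-value of 0.05 in the authors' deposited table, against 15.9% and 14.6% of all genes, and the median log2 value was -0.69, against 0.0097. Gbp2, an interferon-induced guanylate-binding protein, and Oasl2, a relative of the oligoadenylate synthetases, were negative at -6.43 and -5.06 with standard errors of 0.56 and 0.54 in the authors' deposited table (DESeq2 adjusted p-values 1.37e-28 and 3.75e-19). Apobec3, a cytidine deaminase that restricts retroviruses, was positive at 0.82 ± 0.088 (SE) in the authors' deposited table (DESeq2 adjusted p-value 6.58e-19), close to the values of Ifitm1 and Ifitm2. Phf11d was positive at 1.15 ± 0.15 (SE) in the authors' deposited table (DESeq2 adjusted p-value 1.57e-13).

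**Figure D5:**
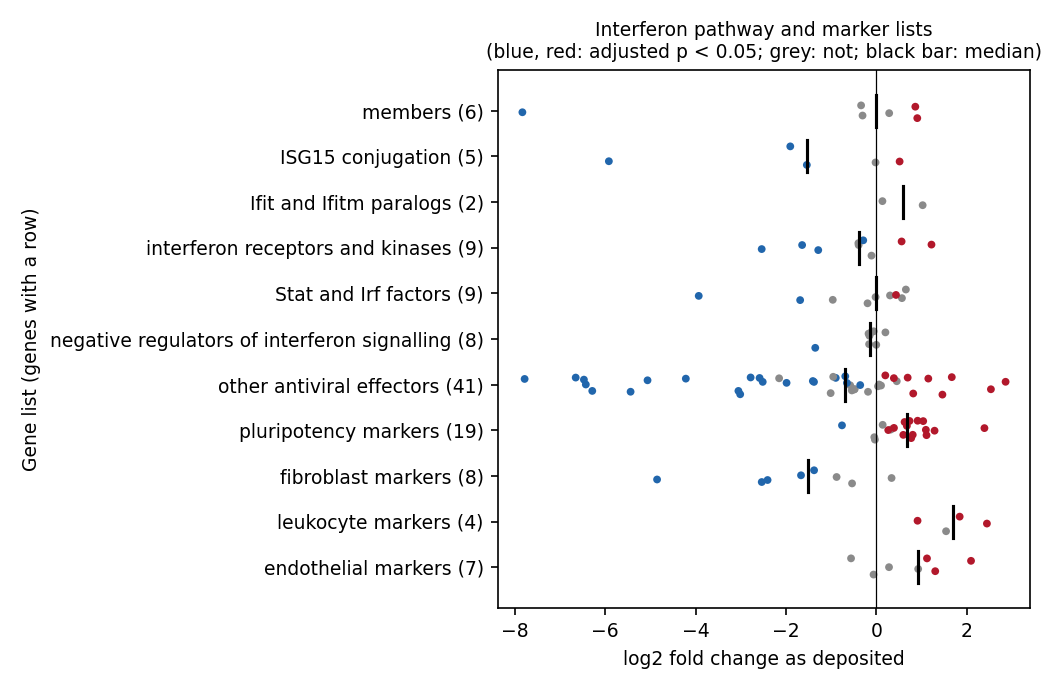
Log2 fold change as deposited for each gene with a row in the effector set, 6 further interferon lists and 4 marker lists, with blue and red for an adjusted p-value under 0.05, grey for the rest and a black bar at the median. Isg15, Uba7, Herc6 and Ube2l6 lie to the left of 0, and Ifitm1 and Ifitm2 lie on the side of most pluripotency markers.

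Markers of cell states and other cells moved in the same comparison. Over all genes, 15.9% were negative and 14.6% positive past the threshold. Of 19 pluripotency markers in the authors' deposited table, 14 were positive past the threshold, the sign of Ifitm1 and Ifitm2, and 1 was negative, with a median log2 fold change of 0.67. Tbx3 and Zfp42 had the smallest p-values, at 2.39 and 1.10 with standard errors of 0.18 and 0.092 in the authors' deposited table, and Dppa3, the negative one, stood at -0.76 ± 0.19 (SE). Of 15 fibroblast markers, 8 had a row, with a median log2 value of -1.52 in the authors' deposited table. Past the threshold 5 of the 8 were negative, the sign of Isg15. The summed mean normalized count of the 8 was 562.2, with Twist1 at 51.9 and Col5a1 at 309.0. Dcn, Lum, Col3a1, Prrx1, Postn, Fap and Twist2 had no row among those used. At a minimum mean count of 50, 2 of the 4 fibroblast markers left were negative, against 2254 of 12658 over all genes. Of 12 leukocyte markers, 4 had a row with a summed mean normalized count of 251.4, 3 of them positive past the threshold and 0 negative, and Ptprc, the pan-leukocyte marker, had no row among those used. Cd3e and Cd68 stood at 2.45 and 0.91 with standard errors of 0.40 and 0.20 in the authors' deposited table. Of 9 endothelial markers, 7 had a row with a summed count of 2906, 3 positive past the threshold and 0 negative. Pecam1 alone held 1917 of that sum and was positive at 1.12 ± 0.24 (SE), and Cdh5 and Emcn had no row among those used. Tek and Vwf stood at 1.303 and 2.09 with standard errors of 0.18 and 0.38 in the authors' deposited table. The leukocyte and endothelial markers past the threshold thus also had the sign of Ifitm1 and Ifitm2. Summed levels per group are not given, since the table pools the libraries, and the part of these cells or states in the values of Isg15 and the Ifitm genes was not tested.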

How the data were processed

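The samples are 6 libraries of polyadenylated RNA, 3 for each sorted group. Per the submitters' processing notes, the tools were FastQC 0.12.1, Trimmomatic 0.39, STAR 2.7.11b, RSEM 1.3.3 and DESeq2 1.45.3 with build GRCm39; their settings, the annotation, the strand setting and the model formula are not given in the sources used here. Per the file headers, the authors' deposited table holds a mean normalized count (a signal), a log2 fold change with its standard error on the log2 scale, a statistic and a p-value with its adjusted p-value. The deposited statistic is a score equal to the fold change over its standard error to within 5.77e-07. The authors' up and down calls matched an adjusted p-value under 0.05 with an absolute log2 fold change over 0.5 for all genes (0 exceptions). The count table has 6 columns that match no sample label; only its gene identifiers were read, so depth per library is unknown here and edgeR and DESeq2 were not run.

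The members and lists were chosen with earlier results of these data known. Named were all members, the 2 genes with the smallest p-value in each direction of each list past the threshold, Ifit and Ifitm paralogs, and members of the Stat and Irf list, of which 1 result is not reported here. Neighbouring genes were named by position, for passing the threshold or for a low count, the last 2 after values were seen. Arih1, Ifih1, Ifnar1, Ifnar2, Jak1, Il10rb, the ISG15 enzymes beyond the rule, Dppa5a and Pecam1 were named for their role, level or value after values were seen. Implied counts per group assume 3 libraries on each side. No gene list was tested as a set. Transcript lengths, shared words and gene order came from GENCODE M21 (GRCm38), promoters from RefSeq (GRCm38.p6), a build other than the authors', by symbol for 67.3% of the table's genes, so motif shares by direction of change are not given. Protein sequences were not used here. Adjustment was recomputed in Python 3.11.15 (numpy 2.4.6) for the alternatives and was tested on simulated data: with 200 of 17110 genes given a log2 change of 1, 93% were recovered, with 5.58% false calls. The changed genes were drawn only from those above a minimum mean count that Isg15 does not reach. The noise was normal, with the deposited standard errors. Recovery at low counts, and whether those errors are right, were thus not tested.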

Additional observations from a re-analysis of the deposited data

How the results depend on the processing

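Of the 18 values of the 6 effector genes under another centre or a minimum mean count of 50, 17 kept their direction and side of the threshold. The other was Bst2, which passed after centring on ribosomal protein genes (0.093), so that 2 effectors in place of 1 were negative. At an absolute log2 fold change over 1, 0 effectors in place of 2 were positive, and 6 pathway genes in place of 13, which the stricter limit itself produces. At a minimum mean count of 50, 17 pathway genes in place of 30 were negative, with fewer genes tested. The counts under an adjusted p-value of 0.01, an absolute log2 fold change over 0.5 and centring on all genes stayed within 1.5 times for the effectors and for the pathway lists together. With the promoter cut to the 250 bases before the start, 6 of 9 effectors held the ISRE core, and with a relaxed core (its first base free) 7 of 9 did.

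Over all genes, an absolute log2 fold change over 0.5 left 1609 positive genes of 2492, and one over 1 left 957 positive and 1315 of 2719 negative. Not run, because no count column could be given to a sample, were edgeR, DESeq2, count filters and fits without 1 library, so the weight of any 1 library is unknown. No paired analysis was possible because no count column shows a replicate and the deposited fold changes are already pooled. Low counts limit Isg15, Ifit2, Uba7, Herc6, Ube2l6, Irf2 and Ifih1, among others.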
